A study of Mus musculus with 10 samples.

Results

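Expression of 10 genes of the Kruppel-like factor (Klf) family was examined in mouse lung tumours with and without a targeted glucose transporter gene. The 10 genes are Klf2, Klf3, Klf4, Klf5, Klf6, Klf7, Klf9, Klf10, Klf13 and Klf15. They were found by symbol among the 39017 genes of the count table, which held 17 Klf genes in all, and each symbol matched 1 row. All 10 were abundant enough to be tested. The members were selected on a list drawn up with the comparison of KPG1 with KP already known, so their differences between genotypes are given as a description. Where a member passed the threshold of the fit across all genes, this is a count beside the share of all genes and not a test of the family. Klf2, Klf4, Klf6 and Klf10 are treated as the early set, because they are known to be switched on quickly by stimuli. The other 6 genes form the second set, and no time course was measured here.

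Messenger RNA was sequenced from 10 lung tumour libraries, 5 labelled control (KP) and 5 labelled KO (KPG1). All mice were C57BL/6 males, and an adenovirus with Cre under the SPC promoter had been delivered to their lungs 18 weeks and 6 days before the tumours were taken. SPC is surfactant protein C, made by alveolar type 2 cells, so Cre acted in SPC-expressing cells only. Both groups carry the engineered alleles that start the tumours. KPG1 mice are in addition homozygous for a floxed Slc2a1, which encodes Glut1, a glucose transporter, whereas 1 label of the KP mice gives a heterozygous floxed allele and another gives wild type. The tumours were dissociated into suspensions of single cells. Cells with the leukocyte surface protein CD45 were then removed with magnetic beads before RNA extraction. The remaining fraction holds tumour cells together with endothelial and stromal cells in which Cre was not active. In such bulk RNA, fewer cells of a type and less RNA per cell cannot be told apart. The labels do not say whether the 5 libraries of a group came from 5 separate mice, so p-values measure only the spread between these libraries.

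Klf proteins are transcription factors that bind GC-rich and CACCC-type sequences through zinc fingers at their carboxy-terminal end. The family members share this DNA-binding part and differ in the rest of the protein, through which some recruit coactivators and others corepressors. In the lung, Klf2 and Klf4 are best known from endothelium, where blood flow raises them through the Mapk7 (ERK5) kinase and Mef2 factors. Klf5 is known from epithelial development, and Klf9 and Klf15 as genes raised by glucocorticoids.

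Stretches upstream of the start site are printed for 3 early members, because Klf2 and Klf4 are often described as partners under the same control while their levels in these libraries followed different patterns, and Klf6 is the most abundant member per length. They are taken from RefSeq promoters (build GRCm38.p6), read 5′ to 3′ on the gene's strand, and stop before any annotated transcript. Capitals mark the MEF2 consensus in Klf2 and GGGCGG, on either strand, in Klf4 and Klf6. GGGCGG also occurs in the Klf2 stretch, where it is left in lower case.
Klf2: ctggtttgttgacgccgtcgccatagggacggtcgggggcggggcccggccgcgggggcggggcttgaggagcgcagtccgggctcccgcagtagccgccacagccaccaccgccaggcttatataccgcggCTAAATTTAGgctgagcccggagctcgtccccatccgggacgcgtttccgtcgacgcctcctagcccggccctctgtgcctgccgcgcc
Klf4: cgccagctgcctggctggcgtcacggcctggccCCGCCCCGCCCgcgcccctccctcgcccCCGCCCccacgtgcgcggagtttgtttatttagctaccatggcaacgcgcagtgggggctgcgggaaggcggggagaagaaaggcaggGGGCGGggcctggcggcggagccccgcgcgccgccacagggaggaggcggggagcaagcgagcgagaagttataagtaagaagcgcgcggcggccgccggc
Klf6: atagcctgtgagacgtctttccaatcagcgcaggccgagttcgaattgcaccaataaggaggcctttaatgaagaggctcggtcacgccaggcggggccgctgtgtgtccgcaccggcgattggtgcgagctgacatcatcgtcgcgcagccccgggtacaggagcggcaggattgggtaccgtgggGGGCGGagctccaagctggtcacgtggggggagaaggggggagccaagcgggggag

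The stretches lie at chr8:72318812-72319032 on the plus strand for Klf2, at chr4:55532476-55532725 on the minus strand for Klf4 and at chr13:5861239-5861481 on the plus strand for Klf6. The MEF2 match in Klf2 begins 118 bases before the RefSeq start. The 4 GGGCGG matches of Klf4, a pair of which overlap, begin between 217 and 101 bases before the start, and the match of Klf6 begins 63 bases before it. Promoter windows of 300 bases, from 250 before to 50 after the start, were searched on both strands for 8 of the 10 members. Klf5 and Klf10 had no entry. The MEF2 consensus was present in 0.557% of all 32851 promoters and, among the members, in Klf2 alone. GGGCGG was present in 35.7% of all promoters and in Klf2, Klf3, Klf4, Klf6, Klf7, Klf13 and Klf15. CCACCC was present in 31.5% of all promoters and in Klf2, Klf3, Klf7 and Klf13. TGANTCA was present in 7.81% of all promoters and in Klf9 alone. The CArG box, which serum response factor binds (1.63% of promoters), and TGACGTCA (1.79%) matched no member. A match describes letters in the window and is not a measured binding site.

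The libraries held 32427029 to 49534284 counts. Slc2a1 was between 71.7 and 127 CPM (TMM-scaled counts relative to library size) in KP and between 40.8 and 66.8 CPM in KPG1, without overlap. Its mean log2 CPM differed by -1.01 (two-sided exact permutation p 0.00794, the smallest that 252 rearrangements allow, n = 5 per group; limma adjusted p 0.0675). Each label also holds a sample number, whose meaning is not stated. It is at most 8 for KP 5 and for KPG1 2, KPG1 3 and KPG1 4, and above 8 for the other 6 libraries, namely KP 1 to KP 4, KPG1 1 and KPG1 5. The former 4 are called low-numbered and the latter 6 high-numbered below. Values are also given within each of these because some members followed them, and the division was chosen after the values were seen. Only 1 KP library is low-numbered, so genotype and sample number are partly confounded. In the limma fit 28 of the 16216 genes tested (0.173%) had an adjusted p below 0.05. Of these, 18 (0.111%) were lower in KPG1.

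The early members were all lower in KPG1, with log2 fold changes from -1.46 to -0.85 and a median of -1.36. Among the other 6 members, 5 were lower, with a median of -0.30 and a range from -0.51 to 0.07. Over all genes tested the median was 0.02, and 47.3% of genes were lower in KPG1. In the limma fit 1 of the 10 members, Klf4, passed the threshold, beside the 0.173% of all genes. Klf4 and Klf10 were the 2 members whose groups did not overlap, as was seen for 2.81% of all genes. Because the contrast was known when the list was drawn up, nothing about the family is read from these counts. Values are log2 CPM or CPM per library, and fold changes are from the limma fit with their standard errors (SE).

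**Figure D1:**
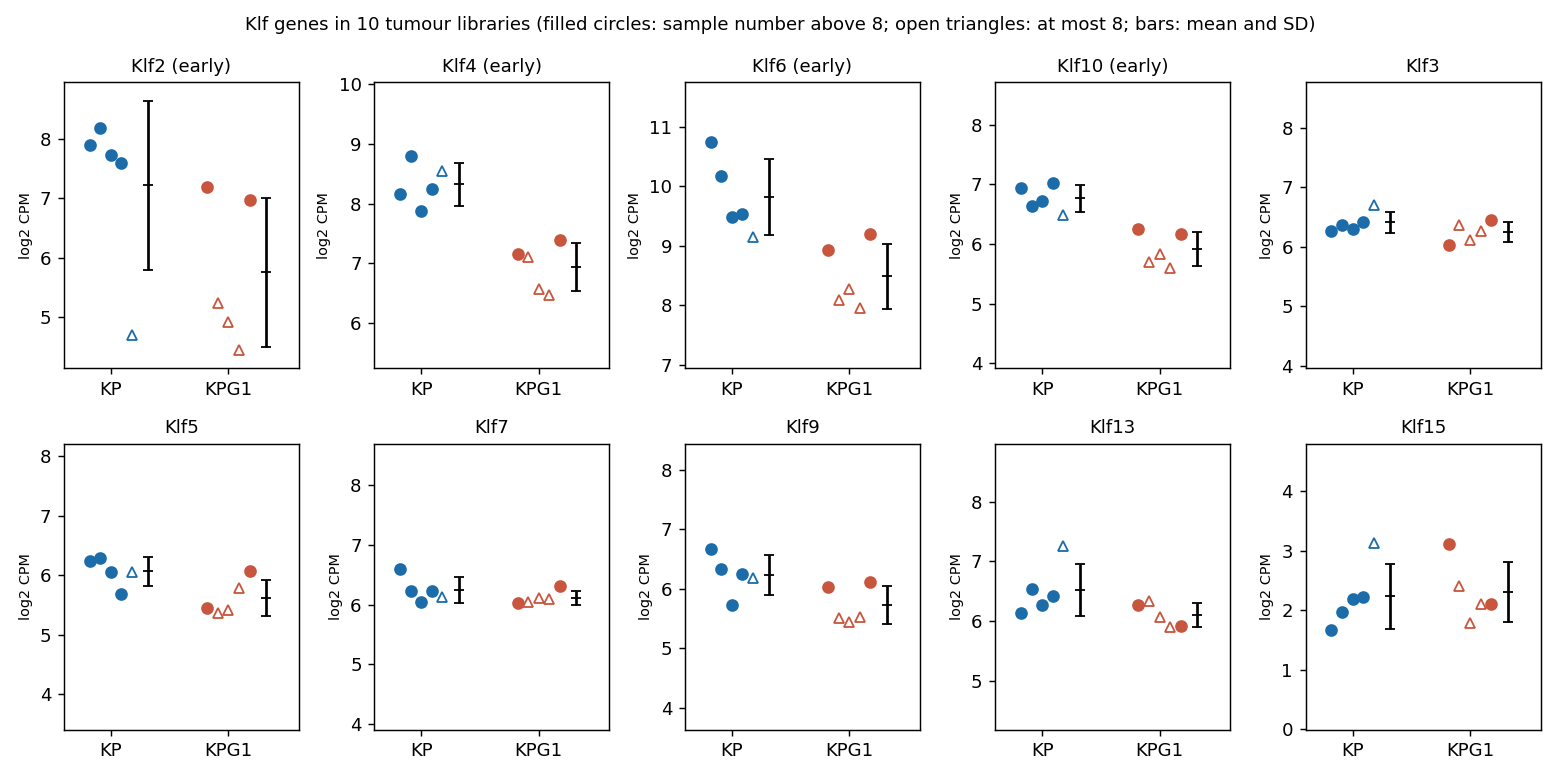
Expression of each Klf gene (log2 CPM, vertical axis) in the 5 KP (blue) and 5 KPG1 (red) libraries; every panel spans the same number of log2 units. Filled circles are libraries with a sample number above 8, open triangles those with a number of at most 8, and the black bars give the mean and SD. The groups are apart for Klf4 and Klf10, while the open triangle of KP 5 sits with the lowest KPG1 libraries for Klf2.

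Klf4 (ENSMUSG00000003032, chromosome 4, 55527143 to 55532466, minus strand, mm10) encodes a factor known from epithelial differentiation, from endothelium and from reprogramming to pluripotency. KP 1 to KP 5 had 287, 447, 234, 303 and 373 CPM. KPG1 1 to KPG1 5 had 143, 138, 94.5, 88.3 and 168 CPM. All KPG1 libraries were thus below all KP libraries, and KP 5 was the second highest. The KP mean was 329 ± 82.7 CPM and the KPG1 mean 126 ± 33.8 CPM (SD, n = 5 each), which is 38.4% of the KP level. The log2 fold change was -1.39 (SE 0.22). The difference in mean log2 CPM was -0.997 among the high-numbered libraries and -1.83 among the low-numbered ones. In the former KP was at 7.87 to 8.81 and KPG1 at 7.16 to 7.39 log2 CPM. In the latter KP 5 was at 8.54 against 6.47 to 7.11 in 3 KPG1 libraries. That the genotypes did not overlap in either follows from the groups not overlapping, so it adds nothing. Klf4 stayed lower in KPG1 when each library was left out in turn (log2 fold change -1.51 to -1.27), but it kept its place past the threshold only without KP 5 and lost it without any of the other 9 libraries. Adding the sample number to the fit also ended the call, at a log2 fold change of -1.39 in numeric form and of -1.295 divided at 8.

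Klf10 (ENSMUSG00000037465, chromosome 15, 38291463 to 38300706, minus strand) encodes a repressor that transforming growth factor beta (TGF-β) induces early. The KP libraries 1 to 5 gave 123, 99.6, 106, 130 and 89.5 CPM. The KPG1 libraries 1 to 5 gave 76.4, 52.0, 56.9, 48.5 and 71.7 CPM. The groups did not overlap, and KP 5 was the lowest KP library. The log2 fold change was -0.85 (SE 0.16), and KPG1 held 55.7% of the KP level. With the sample number as a numeric covariate the log2 fold change was -0.53. The difference in log2 CPM was -0.62 among the high-numbered and -0.77 among the low-numbered libraries. As the groups did not overlap, the genotypes could not overlap in either. In both genotypes the high-numbered libraries were also the higher ones, by 0.35 log2 units in KP and by 0.50 in KPG1.

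Klf6 (ENSMUSG00000000078, chromosome 13, 5861482 to 5870394, plus strand), a widely expressed factor that is induced by injury and by growth factors, gave 1715, 1158, 716, 744 and 564 CPM in KP 1 to KP 5. In KPG1 1 to KPG1 5 it gave 487, 273, 308, 248 and 590 CPM. The groups overlapped only through KPG1 5, which lay just above KP 5. The KP mean was 979 ± 467 CPM and the KPG1 mean 381 ± 150 CPM (SD, n = 5 each), with a log2 fold change of -1.33 (SE 0.33). The difference was -0.92 log2 units among the high-numbered libraries, with KP at 9.48 to 10.74 and KPG1 at 8.93 and 9.21 log2 CPM. It was -1.04 among the low-numbered ones, with KP 5 alone at 9.14 against 7.95 to 8.27 in KPG1. How often other genes separate the genotypes within these libraries was not counted. The high-numbered libraries exceeded the low-numbered ones by 0.85 log2 units in KP and by 0.96 in KPG1.

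Klf2 (ENSMUSG00000055148, chromosome 8, 72319033 to 72321656, plus strand), the factor most closely tied to quiescent endothelium and also expressed in resting lymphocytes, showed a different order. KP 1 to KP 4 had 238, 289, 211 and 193 CPM, and KP 5 had 26.0 CPM. KPG1 1 and KPG1 5 had 146 and 125 CPM, and KPG1 2 to KPG1 4 had 37.9, 30.1 and 21.8 CPM. Klf2 was therefore high in the 6 high-numbered libraries (125 to 289 CPM) and low in the other 4 (21.8 to 37.9 CPM), whichever the genotype. No other member separated the high-numbered from the low-numbered libraries without overlap, which 5.57% of all genes did. The fitted log2 fold change between genotypes was -1.46, the largest in size among the members, with an SE of 0.71. Among the high-numbered libraries the difference was -0.77, with KP at 7.60 to 8.17 and KPG1 at 6.97 and 7.19 log2 CPM. Among the low-numbered ones it was 0.17, with KP 5 at 4.70 between KPG1 libraries at 4.45 and 5.25. High-numbered exceeded low-numbered libraries by 3.14 log2 units in KP and by 2.21 in KPG1. The log2 fold change of Klf2 was 0.27 with the sample number as a numeric covariate, -0.45 with the number divided at 8 as a covariate and -2.31 with a weight per library. What the sample number stands for was not tested, and the part of the genotype in the pooled Klf2 difference cannot be told apart from it.

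**Figure D2:**
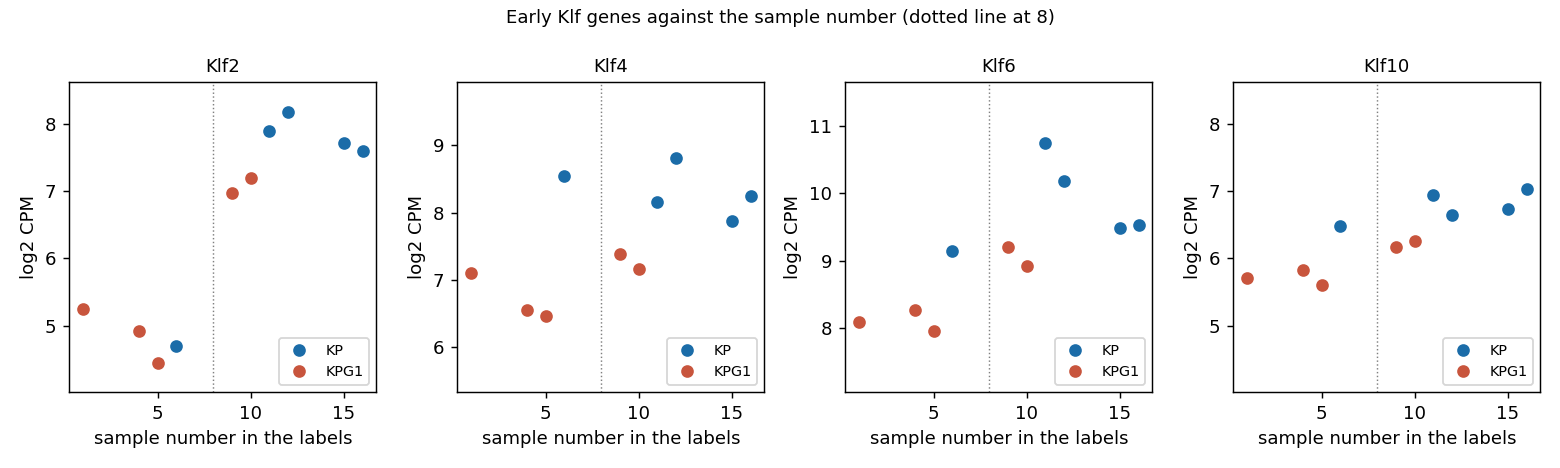
Log2 CPM (vertical axis, equal spans) of the early members against the sample number in the labels (horizontal axis), each point being a library, blue for KP and red for KPG1; the dotted line is at 8. Klf2 is at 5.25 or less on the log2 scale in all 4 libraries left of the line and at 6.97 or more in all 6 to its right, whereas for Klf4 the KP library left of the line, KP 5, is level with the other KP libraries.

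The spread between tumours of the same genotype was larger for Klf2 than for nearly all genes. Its pooled SD was 1.34 log2 units, at the 99.0th percentile of genes in the level range of the members. This SD includes the gap between high-numbered and low-numbered libraries, of 3.14 log2 units in KP and 2.21 in KPG1. The high-numbered KP libraries alone were at 7.60 to 8.17 log2 CPM. The median pooled SD was 0.49 for the early members and 0.30 for the other members, beside 0.29 for the 11328 genes in that range. The sets were not uniform. Among the early members Klf6 had 0.60 and Klf4 0.38, but Klf10 had 0.26, at the 40.7th percentile. Among the others Klf15 had 0.53, at the 84.5th. Klf3 and Klf7 varied least, with SDs of 0.17 and 0.18, at the 12.7th and 13.5th percentiles.

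Klf5 (chromosome 14, 99298691 to 99315036), which acts in proliferating epithelium, was between 51.2 and 77.7 CPM in KP and between 40.9 and 66.9 CPM in KPG1 (log2 fold change -0.45, SE 0.17). KPG1 5 lay above 3 of the KP libraries and KPG1 4 above KP 4, so the groups overlapped. Klf9 (chromosome 19, 23141226 to 23168134), a glucocorticoid-responsive factor, was between 53.1 and 102 CPM in KP and between 43.3 and 68.8 CPM in KPG1 (log2 fold change -0.51, SE 0.19). The 3 low-numbered KPG1 libraries were below 46.0 CPM and thus below every KP library. The difference of Klf9 was -0.17 among the high-numbered and -0.69 among the low-numbered libraries.

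Klf13 (chromosome 7, 63886351 to 63938915), a regulator known from T cells and heart, stood at 153 CPM in KP 5 and between 69.8 and 92.6 CPM in the other KP libraries. In KPG1 it was between 59.4 and 80.4 CPM, and the log2 fold change was -0.43 (SE 0.20). Much of this rested on KP 5, since without that library the fold change was -0.26, and the difference among the high-numbered libraries was -0.25. KP 5 was the highest KP library for Klf13, Klf3 and Klf15 and the lowest for Klf2, Klf6 and Klf10.

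Klf3 (chromosome 5, 64803388 to 64832901), a repressor that binds CtBP proteins, was between 76.6 and 104 CPM in KP and between 65.2 and 87.2 CPM in KPG1 (log2 fold change -0.16, SE 0.13). Klf7 (chromosome 1, 64029447 to 64122282), known from neurons and fat tissue, was between 65.6 and 97.2 CPM in KP and between 64.9 and 79.9 CPM in KPG1 (log2 fold change -0.13, SE 0.13). For Klf3, KPG1 1 and KPG1 3 lay below every KP library, and for Klf7 KPG1 1 did so by under 1 CPM, while the other KPG1 libraries of both genes were within the KP range. Leaving out 1 library moved these small differences, to -0.11 for Klf3 without KP 5 and to -0.034 for Klf7 without KP 1. Klf15 (chromosome 6, 90462576 to 90475238), a regulator of amino acid and lipid metabolism, was the least abundant member at 3.11 to 8.68 CPM in KP and 3.40 to 8.59 CPM in KPG1 (log2 fold change 0.07, SE 0.32). It rested on 123 to 393 counts per library, against at least 763 for every other member in any library. Its difference was 0.60 log2 units among the high-numbered and -1.03 among the low-numbered libraries, in opposite directions, and without KPG1 1 its fold change was -0.17.

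**Figure D3:**
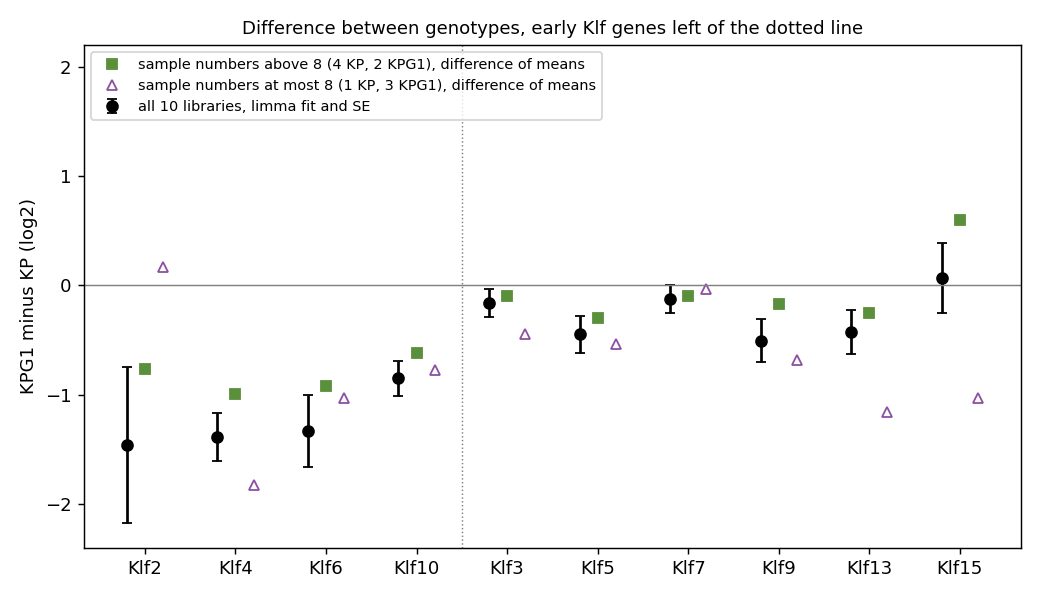
Difference KPG1 minus KP on the log2 scale (vertical axis) for the early members, left of the dotted line, and the other 6. Black points are the limma estimates over all 10 libraries with SE, green squares the difference of means among the high-numbered libraries and open triangles that among the low-numbered ones. For Klf4, Klf6 and Klf10 all estimates are at -0.62 or lower, while the triangle of Klf2 is at 0.17 and Klf15 has values on both sides of 0.

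As a mean over its 4 genes, the early set was at 8.03 ± 0.50 log2 CPM (SD, n = 5) in KP and 6.77 ± 0.60 in KPG1. The mean of the other 6 was 5.62 ± 0.18 in KP and 5.35 ± 0.14 in KPG1. The mean of the early set was 7.22 in KP 5 and 7.95 to 8.45 in KP 1 to KP 4. It was 7.38 and 7.43 in KPG1 1 and KPG1 5 and 6.12 to 6.54 in the other 3. KP 5 thus lay below KPG1 1 and KPG1 5. Klf2 was the only one of the 4 genes with KP 5 below both, at 4.70 log2 CPM against 7.19 and 6.97. For Klf4 and Klf10 KP 5 was above both, and for Klf6 it was between them. Among the high-numbered libraries the lowest KP library was at 7.95 and the highest KPG1 library at 7.43. How often other genes separate the genotypes there was not counted, and the division at 8 was chosen after the values were seen.

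Cell type markers were read beside these values. The 9 endothelial markers were all fitted higher in KPG1, none past the threshold, and their summed level was 344 to 956 CPM in KP and 483 to 1448 CPM in KPG1. KP 5 was the lowest at 344 CPM, while KPG1 2, with 37.9 CPM of Klf2, was at 749 CPM, above KP 1 at 573 CPM. The summed endothelial level of the high-numbered libraries (573 to 1448 CPM) overlapped that of the low-numbered ones (344 to 749 CPM), unlike Klf2. Of the 5 epithelial markers 4 were fitted lower in KPG1, none past the threshold, and their summed level did not overlap between groups (4189 to 5963 CPM in KP, 3109 to 3857 CPM in KPG1). The 9 alveolar type 2 markers were all fitted higher in KPG1, none past the threshold, with sums of 18466 to 63118 CPM in KP and 48076 to 88034 CPM in KPG1. Of the 7 fibroblast markers all were fitted higher, none past the threshold, with sums of 116 to 285 CPM in KP and 184 to 314 CPM in KPG1. Leukocyte markers summed to 96.2 to 196 CPM in KP and 111 to 186 CPM in KPG1, 5 of the 7 tested were fitted lower, none past the threshold, and the T cell gene Cd3e had at most 8 counts in any library. Of the 5 alveolar type 1 markers 4 were fitted higher (680 to 2470 CPM summed in KP, 1438 to 2849 CPM in KPG1), and of the 2 club cell markers 1 was higher (18.7 to 121 CPM in KP, 76.9 to 223 CPM in KPG1). Both tested mesothelial markers were fitted lower, with sums of 79.1 to 319 CPM in KP and 85.6 to 242 CPM in KPG1, as was the single ciliated marker, Foxj1, with 1.37 to 3.96 CPM in KP and 0.572 to 2.08 CPM in KPG1. None of these passed the threshold, and the ranges of each overlapped between groups. The part of cell composition in the Klf differences was not tested.

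Endothelial genes that Klf2 and Klf4 are known to activate gave no call. Of 5 listed, 3 were higher and 2 lower, with a median log2 fold change of 0.39. S1pr1, a receptor that holds endothelial junctions, had 0.49 (SE 0.28, limma adjusted p 0.522), and Nos3, the endothelial nitric oxide synthase, had 0.64 (SE 0.47, adjusted p 0.631). Upstream, of 10 tested genes of the Mapk7 and Mef2 arm 3 were higher and 7 lower, and none passed. Mef2c, a factor that binds the MEF2 consensus, differed by 0.54 (SE 0.26, limma adjusted p 0.451). Srf, the serum response factor, had -0.998 (SE 0.44, limma adjusted p 0.419). Srf was at 6.21 to 7.47 log2 CPM in the high-numbered and 4.93 to 5.45 in the low-numbered libraries, without overlap. This held for 1 of the 10 tested genes of the list, beside 5.57% of all genes. A link of Srf to Klf2 was not tested.

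Immediate-early genes, which are induced within minutes of a stimulus and to which the early Klf genes are close in behaviour, were lower in KPG1 for all 14 listed members (median -1.23 on the log2 scale). Of all genes tested, 47.3% were lower. Of the 14, 2 passed the threshold in limma, beside 0.173% of all genes. Fosb, an AP-1 subunit, fell by 1.82 on the log2 scale (SE 0.30, adjusted p 0.0464), and Ier3, a stress-induced survival gene, fell by 1.07 (SE 0.15, adjusted p 0.0240). Both calls were lost in some alternatives, Fosb keeping its call in 7 and Ier3 in 9 of 19. The genotypes did not overlap for 6 of the 14 genes, beside 2.81% of all genes, and the high- and low-numbered libraries did not for 6, beside 5.57%. The list was chosen with earlier results of these data known, and the division at 8 after the values were seen. Nothing about the list is therefore read from its counts. The part of the dissociation of the tumours in the levels of these genes and of the early Klf genes was not tested. The mean of the list was 7.93 to 9.20 log2 CPM in the high-numbered and 6.69 to 7.68 in the low-numbered libraries, without overlap, as for Klf2. Among the high-numbered ones the lowest KP library was at 8.75 and the highest KPG1 library at 8.05. How often genes outside the list separate the genotypes there was not counted.

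The other lists held no call in either direction. Of 10 TGF-β response genes 6 were lower and 4 higher, with a median log2 fold change of -0.03, near the 0.02 over all genes. Among the lower ones was Smad7, an inhibitor of the pathway, with -0.71 (SE 0.20, limma adjusted p 0.224). Of 12 glucocorticoid response genes 10 were lower, with a median of -0.59. Tsc22d3, which encodes a glucocorticoid-induced leucine zipper protein, had -0.70 (SE 0.16, adjusted p 0.133), and the clock gene Per1 had -0.98 (SE 0.25, adjusted p 0.187). Of 10 tested circadian genes 8 were lower, among them Nr1d1, a repressor of the clock, with -1.21 (SE 0.35, adjusted p 0.234), while Npas2, an activator of the clock, had 0.97 (SE 0.18, adjusted p 0.0615). Of 13 cofactors and ubiquitin ligases of Klf proteins 8 were higher and 5 lower. Ctbp2, a corepressor bound by Klf3, had -0.25 (SE 0.11, adjusted p 0.426), and the histone deacetylase Hdac2 had 0.26 (SE 0.14, adjusted p 0.521).

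The rest of the family was read in the same fit. Of 17 further Klf and Sp genes 10 were abundant enough to be tested, of which 6 were higher and 4 lower in KPG1 (median 0.17 on the log2 scale), and none passed, while 2 had an unadjusted p under 0.05. The smallest p-values were those of Sp5, with 1.58 (SE 0.56, limma adjusted p 0.312), Klf11, the closest relative of Klf10, with -0.61 (SE 0.25, adjusted p 0.373), and Klf8, a repressor, with 0.64 (SE 0.53, adjusted p 0.671). Sp5 and Klf8 were scarce, with group means of 0.13 and 1.68 log2 CPM for Sp5 and of -1.50 and -0.99 for Klf8.

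Levels were then compared between members per length, as CPM per kilobase of annotated exon. In KP, Klf6 was first with 223 ± 106 (SD, n = 5), followed by Klf4 with 108 ± 27.1, Klf2 with 104 ± 53.7 and Klf10 with 26.2 ± 4.03. Klf9, Klf5, Klf13, Klf7 and Klf3 followed between 15.9 and 7.61, and Klf15 was last with 1.77 ± 0.78. In that order the ranges of neighbours overlapped, except between Klf10 and Klf9 and between Klf3 and Klf15. The order was the same in KPG1, with Klf6 at 86.8 ± 34.1, Klf4 at 41.4 ± 11.1, Klf2 at 39.1 ± 31.7 and Klf10 at 14.6 ± 2.94 (SD, n = 5). There Klf4 and Klf6, Klf3 and Klf7, and Klf15 and Klf3 did not overlap. The 4 early members were thus the 4 most abundant per length in both genotypes. With the length of the longest transcript in place of all exons, 5 of the 10 ranks in KP were kept, and Klf3 moved from rank 9 to rank 7. The genes of Klf3, Klf7, Klf9 and Klf13 overlap other annotated genes, and the strand setting of the counting is not given in the sources used here, so their counts are less certain. The early members, Klf5 and Klf15 overlap no other gene.

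**Figure D4:**
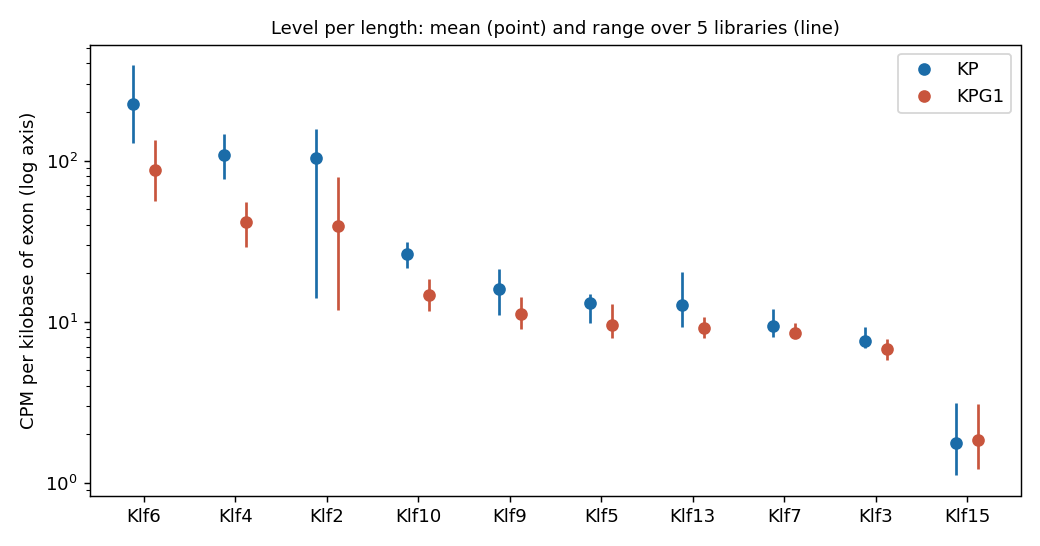
Level per length of the members in CPM per kilobase of exon (vertical log axis), in the order of the KP means, for KP (blue) and KPG1 (red). Points are means and lines the range over 5 libraries; Klf6, Klf4, Klf2 and Klf10 are the highest in both groups, and the lines of Klf2 are the longest among the early members.

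Whether members varied together between tumours of 1 genotype was asked after subtracting each group mean from the log2 CPM values, a quantity the genotype contrast did not use. Klf2 fell into separate clusters by sample number, so no correlation is given for it. Of the other 36 pairs, 5 had an unadjusted p under 0.05 and none passed after Benjamini-Hochberg adjustment over the 45 pairs computed. The highest was that of Klf6 and Klf9, with Pearson's r 0.84 (exact permutation p 0.00813, adjusted p 0.198, n = 10) and Spearman's rho 0.75 (exact permutation p 0.0336, adjusted p 0.509). Without KP 1 and KPG1 5, the 2 libraries farthest from the median of Klf6, r was 0.65. The extremes of Klf9 were not looked for in this step. The permutation did not hold the sample number, by which both genes separated in KPG1, Klf6 at 8.93 and 9.21 against 7.95 to 8.27 log2 CPM and Klf9 at 6.03 and 6.11 against 5.44 to 5.52. The part of the sample number in this correlation was not tested. Klf13 and Klf15 followed with r 0.80 (exact permutation p 0.0126, adjusted p 0.198, n = 10) and rho 0.65 (exact permutation p 0.0761, adjusted p 0.509). Without KP 1 and KP 5, the 2 libraries farthest from the median of Klf13, r was 0.53.

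Genes most like each set in this within-genotype variation were sought among 12851 genes over the 10 libraries. The mean of the early members itself separated by sample number, so no correlation is given for it. It was at 7.38 to 8.45 log2 CPM in the high-numbered and 6.12 to 7.22 in the low-numbered libraries. Of the early members only Klf2 separated in this way by itself, and a mean without Klf2 was not computed. For the mean of the other 6 members the closest were Zfp112, Ufd1l and Snn, each with Pearson's r 0.94, BC064078 with 0.92 and Ctso, a lysosomal protease, with 0.91, and each of these overlapped by sample number. The mean of the other 6 deviated most in KP 5, the only low-numbered KP library, where it was 0.29 log2 units above the KP mean. These genes are the highest of the whole search, and no chance level was computed for them. The points of these correlations share their libraries and the sample numbers, and they are given as a description.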

How the data were processed

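Poly(A) RNA of CD45-negative tumour fractions was sequenced with a stranded kit. The authors trimmed and aligned the reads to mm10 with HISAT2. The submitters' processing notes name bcl2fastq 2.17, cutadapt 1.4.2, featureCounts 1.4.4 and edgeR. The strand setting and annotation release are not given in the sources used here. The values deposited by the authors are raw counts per Ensembl gene, not normalized. The joint table and the single-library tables held the same 390170 values. The log2 table of the authors was not used. The names of the tumour-starting alleles and 1 gene that the naming rule below would give are not reported here.

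Libraries were grouped by the KO or control label. Genes were kept by filterByExpr, which left 16216, and fitted with TMM, voom and limma 3.58.1 (edgeR 4.0.16, R 4.3.3), with genotype as the only term and Benjamini-Hochberg adjustment over all of them at a threshold of 0.05. Log2 CPM has a prior count of 2. The fits and the permutation test were tested on simulated data. Members and gene lists were chosen with earlier results of these data known. Beside the members, the text names every gene of a list past the threshold, otherwise the 2 with the smallest p (3 for the rest of the family), and the 5 genes most like the mean of the other 6 members among those with a mean log2 CPM of 1 or more. Alternatives were edgeR's quasi-likelihood test, DESeq2 1.42.0, other filters, library weights, the replicate block, the sample number as a covariate, leaving out each library, and, for correlations, another scale and measure. The planned correlation of the members with the mean of the immediate-early genes and the likeness to the early mean were not given, because these means fall into clusters by sample number. Positions and exon lengths came from GENCODE on mm10. Reads had no molecular identifiers, so a count can include PCR copies. Figures were drawn with matplotlib 3.10.9.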

Additional observations from a re-analysis of the deposited data

Results flagged for a closer look

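Both extremes of each group of 5 libraries were compared with the rest of the group for every member, in 20 groups, of which chance would flag 1. The gap to the nearest library exceeded the critical share of 0.71 of the group's range in 2 of them. Klf2 in KP 5 was at 4.701 log2 CPM, with a gap of 0.834 of the KP range, and this library has a sample number of at most 8 like the 3 KPG1 libraries with low Klf2. Klf7 in KPG1 5 was at 6.32 log2 CPM, the highest of KPG1, with a gap of 0.715 of the range, although it was within the range of KP.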

How the results depend on the processing

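In each setting tried, 9 or 10 of the tested members were lower in KPG1, but the calls depended on the setting, and the cause was not tested. Among all genes, 10 passed as higher and 18 as lower in the main comparison. The counts were 29 lower with edgeR, 125 higher and 423 lower with DESeq2, 31 lower without a filter on low counts, 5 higher and 31 lower at a mean CPM of at least 20, 51 higher and 177 lower with library weights, and 4 in each direction with the sample number as a numeric term. With only the 6 libraries above 8 they were 3 and 1. Leaving out a library gave 3 to 71 higher and 1 to 223 lower genes, with both highest counts without KP 5. Members past the threshold numbered 3 (Klf4, Klf6 and Klf10) with DESeq2, with library weights and without KP 5. They numbered 0 with the sample number in either form, with only the libraries above 8 and without any other single library. The early median was -0.71 with the numeric sample number, -0.82 with it divided at 8 and -0.83 within the libraries above 8, and the median of the others was -0.45 at a mean CPM of 20, where Klf15 was not tested, and -0.13 within the libraries above 8. Of the other lists, 2 genes passed in the main comparison, 25 with DESeq2, 5 without a filter, 5 at a mean CPM of 20, 21 with library weights, 0 with the numeric sample number, 6 with it divided at 8, 0 within the libraries above 8, and 0 to 17 when a library was left out. With the longest transcript, 5 of 10 ranks by level were kept. The settings that divide libraries at 8 were chosen after seeing the data.

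Libraries with the same replicate number did not deviate together (correlations of -0.16 to 0.08), and 1 of 10 correlated best with its own number, so the numbers share only a label. With the replicate block, 4 genes were higher and 1 lower, 0 members and 0 list genes passed, and the log2 fold change of Klf4 was -1.39. Slc2a1 stayed lower with an exact permutation p under the threshold in every setting tried for it. Klf15, with 123 to 393 counts, is the member most limited by depth.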
